A study of Mus musculus with 6 samples.

Results

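The anaphase-promoting complex, or cyclosome (APC/C), was followed through 10 of its subunit genes in mouse satellite cells, which are the resident stem cells of muscle, with and without the proteasome subunit Rpt3. The genes were Anapc1, Anapc2, Anapc4, Anapc5, Anapc7, Anapc10, Anapc11, Cdc16, Cdc23 and Cdc27, chosen by their names among the non-control probes of the array, which carries 32275 gene names in all. They had been proposed because genes with an Anapc symbol leaned lower in the knockout in these same arrays. Their knockout values are therefore given as a description without a test, and they support nothing about that lean.

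Satellite cells had been sorted from 3 C57BL6 mice in which Rpt3, encoded by Psmc4, was knocked out in satellite cells only, and from 3 control mice. RNA of each mouse was amplified from 5 ng and hybridized to 1 Agilent 1-colour array. The genotype of the control mice, the driver of the deletion and the age of the animals are not given in the sources used here. All values below are log2 signals relative to the 75th percentile of the same array, so 0 is that percentile and a difference of 1 is a doubling of signal. A difference is the knockout mean minus the control mean.

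The APC/C is a ubiquitin ligase of the cullin-RING type that marks securin and the mitotic cyclins for destruction by the proteasome, which lets sister chromatids part and mitosis end. With the co-activator Cdc20 it works in mitosis, and with Fzr1, also called Cdh1, it works in late mitosis and holds cells in G1 or in quiescence, the resting state of most satellite cells in uninjured muscle. Anapc2 and Anapc11 form its catalytic centre, and Anapc10 helps to hold substrates. Anapc1, Anapc4 and Anapc5 make up the platform. The arm of tetratricopeptide repeat (TPR) proteins, Cdc27, Cdc16, Cdc23 and Anapc7, binds the co-activators and the platform.

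The 10 genes had 19 probes, which are 60 bases long. For 8 genes, some probe exceeded background clearly on each array of one group or of both, and the brightest such probe stood for the gene. All 8 of these probes did so on each of the 6 arrays. Anapc10 and Cdc23 had no probe that passed. The stretches below belong to probes on which the results turn, and their coordinates are in mouse build mm9. They are 30 bases long except for the Anapc5 probe that crosses a splice junction, which is whole. Whether the other probes lie in coding sequence or in a UTR could not be read from the files. Capitals mark an AATAAA in Anapc7 and Cdc16, and the longest CA repeat in Cdc27.
Anapc1, bases 1 to 30 of its probe at chr2:128438497-128438556, minus strand: aaattcatgttgaaaataagacagataacg
Anapc5, the junction probe at chr5:123237981-123238323, minus strand: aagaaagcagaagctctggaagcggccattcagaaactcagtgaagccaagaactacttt
Anapc7, bases 21 to 50 of its probe at chr5:122894401-122894460, plus strand: acaggctcacctAATAAActgttcagtgtg
Anapc11, bases 31 to 60 of its repeated probe at chr11:120466908-120466967, plus strand: tttcccatcacattgacactttattcaata
Cdc16, bases 31 to 60 of its probe at chr8:13781822-13781881, plus strand: acgtgtagcagAATAAAgaaggtcaactat
Cdc27, bases 11 to 40 of its brightest probe at chr11:104364571-104364630, minus strand: tacagatacacacactCACACACACgtaca

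Between 44.2% and 57.9% of probes were well above background per array, the lowest share on knockout 3, and this array also stood apart on the first principal component. Slide row 1 held knockout 1 and 2, while slide row 2 held the other knockout and all controls, so a value with slide row as a block rests on knockout 3 alone against the controls. Psmc4 kept 52.8% of its control signal, with 2.004, 2.02 and 1.52 in the knockouts and 2.89, 2.58 and 2.84 in the controls, which did not pass over all features (limma, adjusted p = 0.414). All 10 satellite cell markers passed the filter, but only 7 of 10 were above background on every array, and Myf5 on 3 arrays. The 6 fibro-adipogenic, 6 endothelial and 6 immune markers also all passed the filter. All 6 fibro-adipogenic markers were above background on every array, as were 5 of 6 endothelial and 5 of 6 immune markers. Summed linear signals of the satellite cell list, to which Cxcr4 adds most, lay between 111 and 128 in the knockouts and between 140 and 196 in the controls. The mean of its 10 genes on the log2 scale, each centred on its own mean, overlapped, with -0.050, -0.067 and -0.44 against -0.28, 0.46 and 0.37. The fibro-adipogenic list, to which Col1a1 adds most, summed to 432 to 474 and to 543 to 882, but its centred means also overlapped, with 0.080, 0.060 and -0.46 against 0.42, -0.26 and 0.15. The endothelial list, at 26.8 to 68.7 and 26.2 to 89.2, overlapped between the groups. So did the immune list, at 690 to 1221 and 807 to 816, to which Itgam adds most. The immune sum was highest on knockout 3, where the centred mean of that list was lowest, at -0.22. Neutrophil markers summed to 9.21, 15.7 and 0.962 on knockout 1, 2 and 3 and to 1.17 to 1.65 in the controls, and red blood cell markers to 5.42 to 10.2 and 1.97 to 4.18. The muscle fibre list spanned 7.37 to 17.5 and 11.6 to 13.5, and the pericyte and smooth muscle list 45.7 to 53.7 and 43.1 to 46.2. The neutrophil, red blood cell, and pericyte and smooth muscle sums were all highest on knockout 1 and 2. Ckm among the fibre markers was above background on no array. The part of these cell types in the subunit values was not tested, and fewer cells of a type cannot be told apart from less RNA per cell.

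As a set, the measured subunits showed differences in both directions, with a median absolute difference of 0.28 beside 0.21 over all features. The 8 measured genes ranged from -0.59 for Anapc1 to 0.54 for Anapc7, with a median of -0.090 beside 0.035 over all 17947 features. Of these, 6 of 8 had a lower knockout mean, beside 45.2% of all features, but Anapc2, at -0.0016, and Cdc27, at -0.0058, were hardly away from 0. None of the 8 was called by limma at an adjusted p under 0.05, and the share called over all features was 0% in either direction. At an unadjusted p under 0.05, limma had 498 features, or 2.77%, higher and 797, or 4.44%, lower, and the smallest adjusted p was 0.0588. The knockout arrays all lay below the control arrays in 3 subunits and all above in 1, where 5.95% and 4.87% of all features did so. Since this contrast chose the genes, nothing is read from these counts and medians.

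Among the platform subunits, Anapc1 had the lowest difference of the 8 measured genes and the means of Anapc5 and Anapc4 were close to the controls. Anapc1, the largest scaffold of the complex, had signals of 1.01, 0.66 and 0.75 in the knockouts (always in the order of mouse 1, 2 and 3) and of 1.32, 1.44 and 1.44 in the controls. Every knockout sample was below every control sample, and knockout 1 was the nearest to them. The mean was 0.81 ± 0.18 (SD, n = 3) against 1.40 ± 0.071 (SD, n = 3), a difference of -0.59 with a standard error of 0.21, or 66.3% of the control signal. A block for slide row gave -0.65, and over all settings tried the difference stayed between -0.69 and -0.45. Its other 2 probes, for Ensembl transcripts, were above background on no array.

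For Anapc5, a platform subunit with TPR motifs, 3 probes annotated to the gene passed. The brightest read 3.59, 3.48 and 3.57 in the knockouts and 3.65, 3.86 and 3.64 in the controls, so the groups did not overlap although the difference was only -0.17 (SE 0.20). The junction probe printed above gave 2.22, 1.85 and 2.08 against 2.22, 2.48 and 1.77, with overlapping groups and a difference of -0.11. The remaining passing probe, for transcript AK168135, differed by 0.20 in the other direction, with values of 0.29, 0.082 and -0.43 against -0.30, 0.13 and -0.49. The array annotation puts that probe at chr5:10957954-10958013, while the other 2 lie near 123237740 on the same chromosome, so whether it reports Anapc5 was not tested. The mean of the 3 probes differed by -0.029.

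Anapc4, the remaining platform subunit, read 0.61, 0.65 and 0.28 in the knockouts and 0.63, 0.019 and 0.65 in the controls. The groups overlapped, and control 2 was the lowest of the 6 arrays. The difference was 0.085 (SE 0.26), and it turned to -0.15 with slide row as a block and to -0.12 without control 2.

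**Figure D1:**
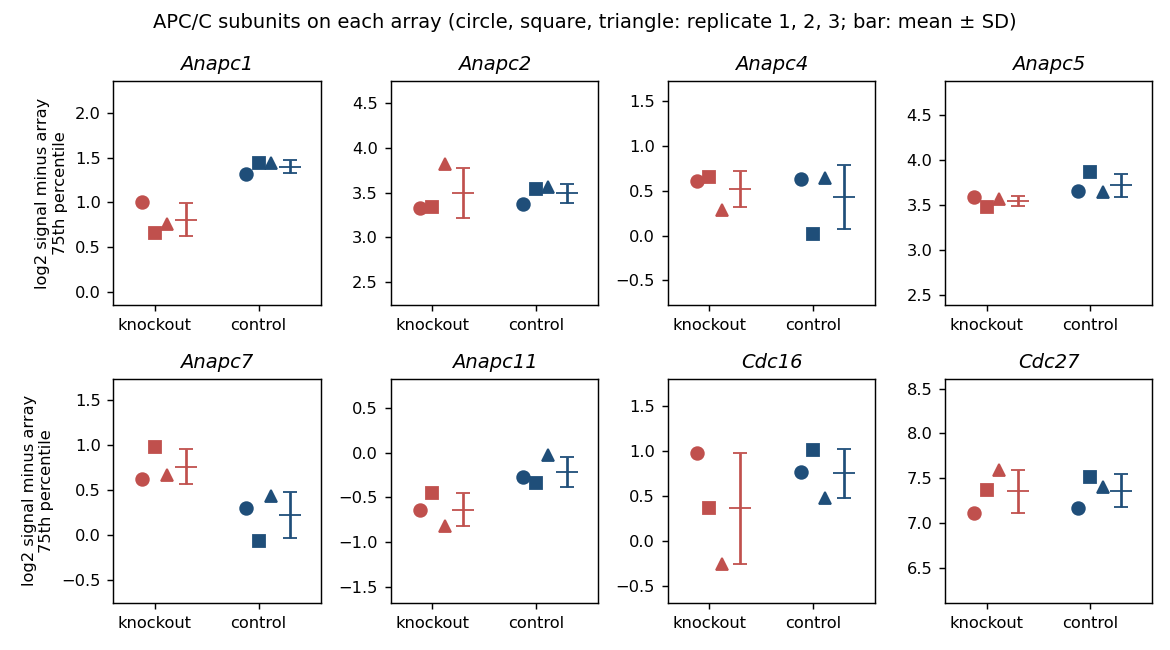
Log2 signal relative to the array's 75th percentile for the 8 measured subunits, with each array as a point (circle, square and triangle for replicate 1, 2 and 3) and the group mean ± SD beside it; all panels span the same range of log2 units. Knockout and control points separate for Anapc1, Anapc5 and Anapc11, where the knockouts are lower, and for Anapc7, where they are higher.

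In the catalytic pair, Anapc2 had nearly equal means in both groups and Anapc11 had a lower knockout mean. Anapc2, the cullin subunit, read 3.33, 3.34 and 3.81 in the knockouts and 3.37, 3.54 and 3.57 in the controls. Its groups overlapped, and knockout 3 was the highest of all arrays while knockout 1 and 2 were the lowest. The difference of -0.0016 (SE 0.23) accordingly became 0.32 with slide row as a block and -0.16 without knockout 3.

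Anapc11, the RING subunit that receives the ubiquitin-charged enzyme, had 1 probe printed as 10 spots on each array, which gives an error within the array. The spot means were -0.64, -0.45 and -0.82 in the knockouts and -0.28, -0.34 and -0.027 in the controls. Every knockout mean was below every control mean, but the gap between knockout 2 and control 2 was narrow. The SD over spots lay between 0.12 on knockout 1 and 0.21 on knockout 3, where 7 spots were used and the other 3 carried outlier flags. Spots of knockout 2 ranged from -0.68 to -0.14 and those of control 2 from -0.61 to -0.053, so single spots of these 2 arrays overlapped.

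The difference of this repeated probe was -0.42 (SE 0.22), or 74.8% of the control signal. A block for slide row gave -0.60, and it was -0.19 with normexp background correction, an alternative that subtracts a modelled background and adds an offset. A second Anapc11 probe differed by -0.10, with overlapping values of -1.68, -2.18 and -1.34 against -1.33, -1.55 and -2.01. Anapc10, the subunit that helps to hold substrates, had a single probe that was above background on no array, so it has no measured difference.

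**Figure D2:**
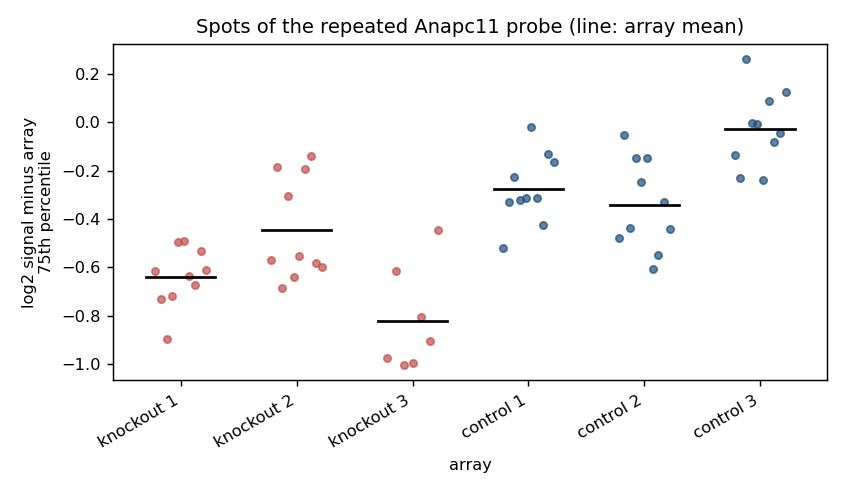
Log2 signal of the single spots of the repeated Anapc11 probe on each array, relative to the array's 75th percentile, with the array mean as a line; spots with outlier flags are left out, which leaves 7 on knockout 3 and 10 on each other array. The 3 knockout means, from -0.82 to -0.45, lie below the 3 control means, from -0.34 to -0.027, while spots of neighbouring arrays overlap.

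In the TPR arm the subunits pointed in different directions. Anapc7, a TPR subunit known from animal complexes, was the subunit with the highest difference, with signals of 0.62, 0.98 and 0.67 in the knockouts and 0.30, -0.064 and 0.44 in the controls. Every knockout sample was above every control sample, and knockout 2 and control 2 were the extremes. The mean was 0.76 ± 0.19 (SD, n = 3) against 0.22 ± 0.26 (SD, n = 3), a difference of 0.54 (SE 0.24), or 1.45-fold. It stayed positive in all settings, between 0.35 with normexp and 0.64 without control 3. Its other 2 probes were above background on no array. Of these, 1 is annotated to the same transcript as the representing probe. It averaged -3.57 over all arrays, beside 0.49 for the representing probe.

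Cdc16, which pairs with the small subunit Cdc26 in the arm, had the largest knockout SD of the 8 measured genes, at 0.62. It read 0.98, 0.36 and -0.26 in the knockouts and 0.77, 1.01 and 0.47 in the controls. The groups overlapped: knockout 1 was above control 1 and control 3, and knockout 3 was the lowest array. The difference was -0.39 (SE 0.34), and knockout 3 decided its size, since a block for slide row gave -1.01 and the difference was -0.084 without knockout 3.

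Cdc27, the arm's docking site for the co-activators, was represented by a probe with a run of 9 bases of CA repeat, printed above. It read 7.11, 7.37 and 7.59 in the knockouts and 7.16, 7.52 and 7.41 in the controls, with overlapping groups and a difference of -0.0058 (SE 0.23). The other Cdc27 probe, without such a run, was above background on 2 of 3 arrays in each group and so did not pass the filter. Its values were -1.85, -1.42 and -2.33 against -3.80, -2.33 and -1.30, a difference of 0.61 that also overlapped. With slide row as a block the first probe differed by 0.23. Neither probe gave a separation of the groups. Both are annotated to the same transcript, yet their means over all arrays were 7.36 and -2.17. Whether the brighter probe, which stands for the gene in all counts, reports Cdc27 alone was not tested.

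Cdc23, the remaining TPR subunit, was not measured. One of its 2 probes was above background on control 2 alone, at -2.26, and the other on no array. The gene lies on chromosome 18, and no sequence is shown for it.

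Set against each gene's own mean over the 6 arrays, each knockout array had 3 of the 8 subunits above it, and control 1, 2 and 3 had 5, 6 and 6. Averaged over the 8 subunits, the knockout arrays stood at -0.010, -0.036 and -0.14 and the control arrays at 0.030, 0.038 and 0.11. These array means, with SDs of 0.066 and 0.045 (n = 3 each), did not overlap at a difference of -0.12; the same contrast chose the genes, so nothing is read from this. Anapc5 was nearest to this mean profile, with a root mean square difference of 0.11 over the 6 arrays, and Cdc16, at 0.39, and Anapc7, at 0.37, were the farthest. Each subunit is itself part of this mean. Among the companion genes described next, those nearest to it were Mad2l1bp at 0.11, Pttg1 at 0.18 and Bub3 at 0.22, all with differences between -0.14 and 0.085. The distance is not scaled, so genes that vary little come out near to it. Mad2l1bp and Pttg1 had higher knockout means, opposite to the profile.

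**Figure D3:**
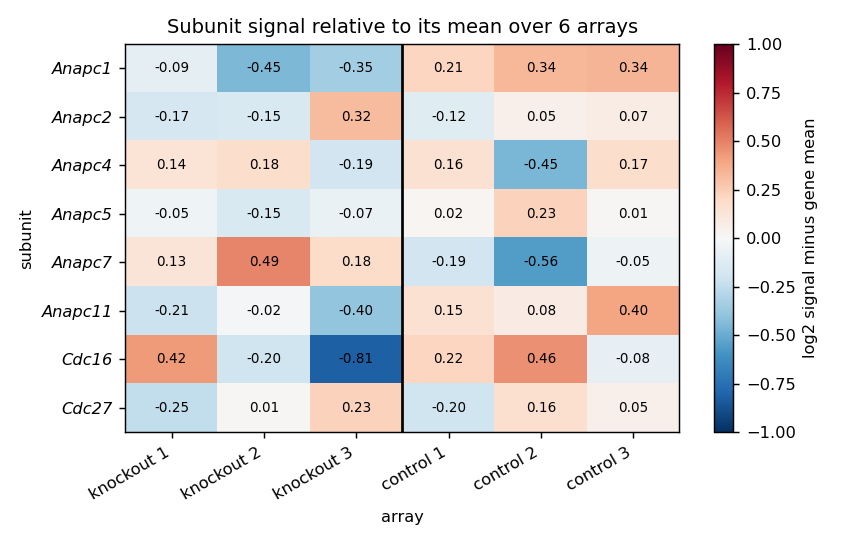
Log2 signal of the 8 measured subunits (rows) on the 6 arrays (columns), each relative to the gene's mean over all arrays, with the value in each cell and blue for lower and red for higher signal. Anapc1 and Anapc11 are below 0 on all knockout arrays and above 0 on all control arrays, Anapc7 runs the other way, and Cdc16 drops to -0.81 on knockout 3.

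The 4 other subunits of the complex, small proteins that hold the arm or tune the platform, gave values on both sides of 0 as well. Anapc13 differed by 0.089 (SE 0.28) and Anapc15 by 0.13 (SE 0.27), both with overlapping groups. Anapc13 was -0.054 without control 1, -0.056 without control 3 and 0.38 without control 2, and Anapc15 was -0.10 without knockout 3 and 0.60 with slide row as a block. Anapc16 differed by -0.62 (SE 0.58), with knockout values as far apart as 0.59 and -1.92, and was -1.32 without knockout 1 and -0.064 without knockout 2. Cdc26, the chaperone-like partner of Cdc16, differed by 0.39 (SE 0.35; limma, adjusted p = 0.962), and by -0.22 with slide row as a block. In all, 6 probes carry the older array name of Anapc15, 3200002M19Rik. Only 3 of them matched its transcripts by accession. The brightest of these gave the 0.13 above, but another, also above background on all 6 arrays, differed by -0.13. The mean of the matched probes that passed the filter differed by 0.0015. Of the unmatched probes, 1 was above background on all 6 arrays and differed by -0.42.

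**Figure D4:**
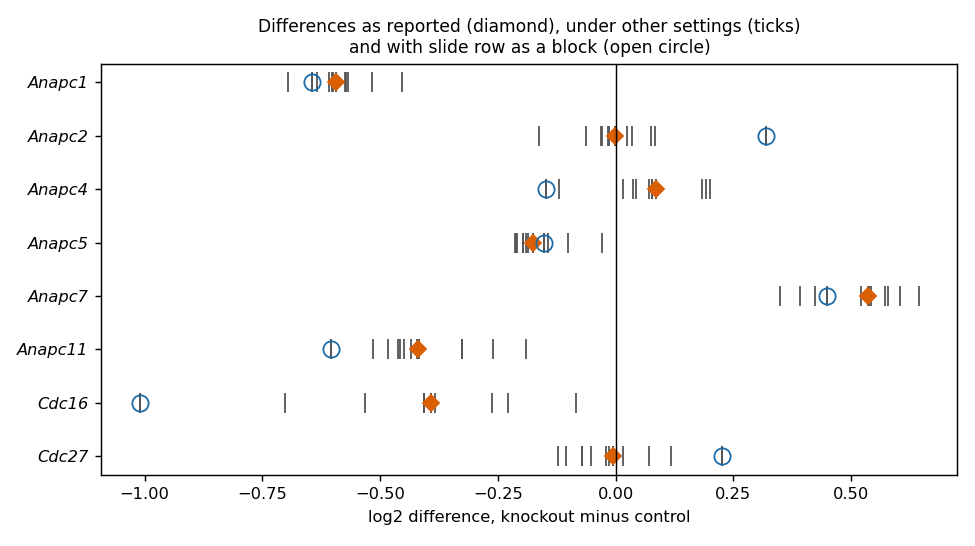
Log2 differences of the 8 measured subunits as reported (diamonds), under each alternative (ticks) and with slide row as a block (open circles). Anapc1, Anapc5, Anapc11 and Cdc16 stay below 0 and Anapc7 stays above 0 under every setting drawn, while Anapc2, Anapc4 and Cdc27 take both signs.

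Genes that work with the APC/C were read from lists chosen by role, with earlier results of these data known. Of 39 such genes 27 were measured, and limma called 0 of them in either direction, as it called 0% of all features; the medians below stand beside 0.035 over all features. Of 7 measured co-activators and inhibitors 5 had lower and 2 higher means, with a median of -0.042. Cdc20, the mitotic co-activator, read -1.61, -2.64 and -1.60 in the knockouts and -1.08, -0.66 and -1.31 in the controls. All knockout samples lay below all controls, though only 1 of 3 was above background. Cdc20 therefore passed the filter through the controls alone, which favours a lower knockout mean. Nothing is read from its separation or its place in that count. Its measured difference was -0.93 (SE 0.34; limma, adjusted p = 0.599), and it was -0.58 without knockout 2 and -0.25 with normexp. Fzr1, the co-activator of resting cells, was above background on all arrays and read 0.67, -0.028 and -0.080 against 0.098, 0.21 and 0.30. Its groups overlapped at a difference of -0.014 (SE 0.26; limma, adjusted p = 0.997). Fbxo5, which encodes the inhibitor Emi1, differed by -0.042 (SE 0.38), Bub1b of the spindle checkpoint by -0.41 (SE 0.44), Bub3 by -0.14 (SE 0.25) and Mad2l1bp by 0.085 (SE 0.20), none of which passed. Bub1b was -0.0077 without control 1, -0.15 without knockout 2 and -0.81 without control 2, and Bub3 was 0.030 without control 1.

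The ubiquitin-conjugating enzymes that load the complex differed among themselves. Ube2c, which starts the chains, read -0.64, -1.91 and -0.59 in the knockouts and 0.36, 0.19 and 1.02 in the controls. No knockout sample reached a control sample, and knockout 2 was the lowest. The difference was -1.57 (SE 0.41; limma, adjusted p = 0.421), and -0.79 with normexp. Ube2s, which extends the chains, read 4.44, 5.27 and 4.90 against 4.64, 4.82 and 4.54, an overlapping difference of 0.20 (SE 0.27; limma, adjusted p = 0.984). Ube2s was 0.0031 without knockout 2 and 0.42 without knockout 1. Ube2e1 differed by 0.35 (SE 0.24), or by 0.089 with slide row as a block, and neither passed.

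Of 13 measured APC/C substrates 9 had lower and 4 higher means, with a median of -0.72, and 4 had all knockouts below all controls while 0 had all above, beside 5.95% and 4.87% of all features. At an unadjusted p under 0.05, 6 substrates were lower and 0 higher, beside 4.44% and 2.77%. Ccna2, Aurka, Tpx2, Kif11, Cdc6 and Nusap1 passed the filter through the controls alone, which favours a lower knockout mean. Nothing is therefore read from these counts and the median. The other measured substrates were above background on all arrays and took both signs. Skp2 (-0.33), Id1 (-0.29) and Rrm2 were lower, Plk1 (0.18), Tk1 (0.14), Pttg1 and Ccnb1 higher, and only Rrm2 had no overlap. Nusap1, a spindle protein, was above background on no knockout array and was at least 3.59-fold lower there on the scale used throughout (limma, adjusted p = 0.135). With normexp its log2 difference was -0.65, which is smaller than that bound. Tpx2, which activates Aurora A, read -2.72, -2.75 and -3.96 in the knockouts, above background in 1 of 3, and -1.37, -0.13 and -0.69 in the controls. Its difference of -2.41 (SE 0.43; limma, adjusted p = 0.229) was -0.66 with normexp. Kif11, a spindle motor gene, differed by -3.12 (SE 0.94; limma, adjusted p = 0.496), but knockout 3, the single knockout above background, lay above control 1, at -1.51 against -1.74. A block for slide row gave -0.73 for Kif11, and normexp gave -0.76. Rrm2, a subunit of ribonucleotide reductase, was above background on all arrays and read 1.85, 1.71 and 1.55 against 2.57, 2.45 and 2.69, a difference of -0.86 (SE 0.21; limma, adjusted p = 0.363) with no overlap. Securin and cyclin B1, whose destruction starts anaphase, differed by 0.020 for Pttg1 and 0.020 for Ccnb1. Markers of proliferating cells, a list that shares Ccna2 with the substrates, had a lower mean in the knockouts on the centred log2 scale. This mean was -0.016, -0.81 and -0.75 in the knockouts and 0.61, 0.23 and 0.74 in the controls. Most of the 7 genes were below background on some arrays. Their summed linear signal, to which Pcna adds most, overlapped, at 10.9 to 14.5 and 11.1 to 13.8. Birc5, above background on all arrays and picked after its values were seen, read -0.21, -1.12 and -0.58 in the knockouts and 0.89 or more in every control. Pcna, the other marker above background on all arrays, ran the other way, with overlapping values of 3.68, 3.73 and 3.29 against 3.335, 3.35 and 2.83. The part of proliferation in the substrate values was not tested.

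**Figure D5:**
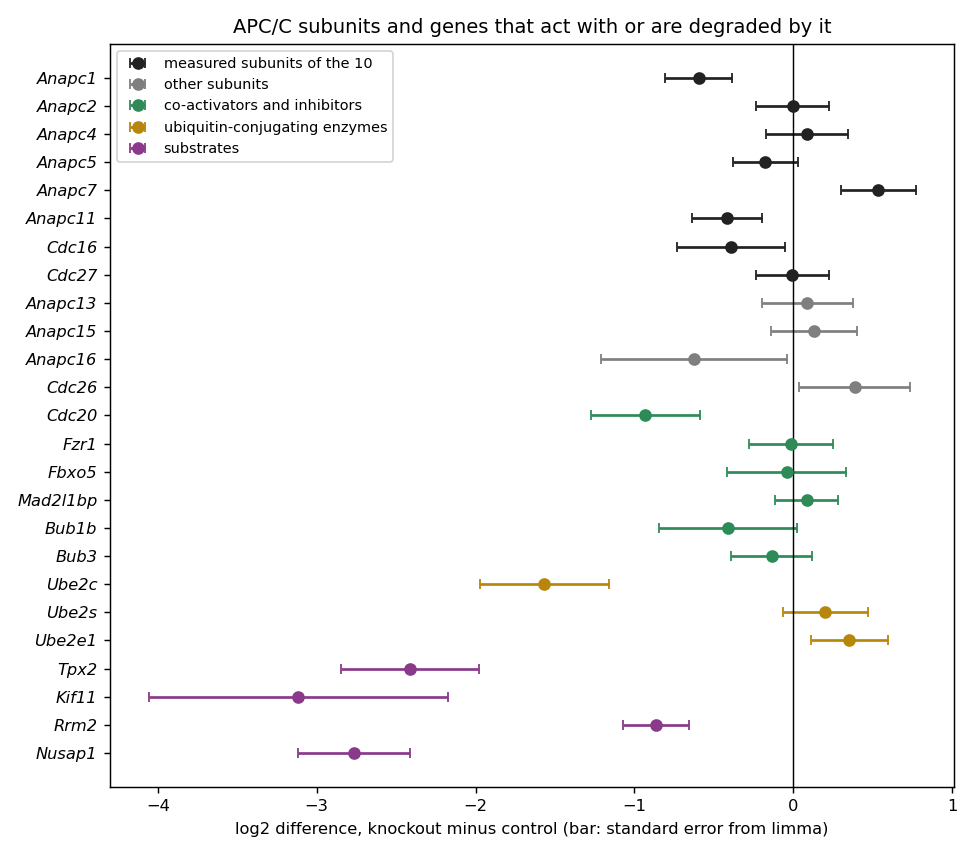
Log2 difference between knockout and control, with its standard error from limma as the bar, for the 8 measured subunits and the named companion genes, coloured by role. The subunits lie between -0.59 and 0.54, while Tpx2, Kif11 and Nusap1, which passed the filter through the controls alone, lie at or below -2.41. Cdc20 also passed the filter through the controls alone. None passed an adjusted p of 0.05, and the value drawn for Nusap1 is a measured mean difference, not its bound.

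RefSeq promoter windows on GRCm38.p6, 300 bases with 250 before the start and 50 after, matched 9 of the 10 subunits and 29 companions. Companions here are co-activators and inhibitors, ubiquitin-conjugating enzymes and substrates. The 4 other subunits of the complex were not searched. CCGGAAG, the core bound by ETS factors, searched on both strands, was in a window of 5 of 9 subunits, 4 of 29 companions and 9.9% of all genes. CCAAT was found for 4 of 9, 19 of 29 and 41.1%. TTTGAA, the cell cycle homology region (CHR) of genes expressed in G2 and mitosis, was found for 1 of 9 subunits, 13 of 29 companions and 20.2% of all genes. The NRF1 motif, GCGC and TGCGC separated by any 1 base, gave 2 of 9, 1 of 29 and 5.2%, and GCGGGAA, an E2F-type match, gave 1 of 9, 1 of 29 and 5.3%. These are matches of letters, not sites.

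The 110 bases before the start are shown for 3 subunits, each with another kind of match, and for 2 companions, Ube2c and Cdc20. These 2 companions bind or load the complex and their groups did not overlap, though Cdc20 passed the filter through the controls alone. Matches to any of these motifs are in capitals.
Anapc1, chr2:128687396-128687505, minus strand: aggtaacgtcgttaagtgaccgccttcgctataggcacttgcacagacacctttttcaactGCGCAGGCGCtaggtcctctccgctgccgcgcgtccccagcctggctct
Anapc11, chr11:120598311-120598420, plus strand: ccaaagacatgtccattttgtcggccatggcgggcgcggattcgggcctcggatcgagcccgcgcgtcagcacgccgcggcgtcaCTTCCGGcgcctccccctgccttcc
Cdc27, chr11:104550621-104550730, minus strand: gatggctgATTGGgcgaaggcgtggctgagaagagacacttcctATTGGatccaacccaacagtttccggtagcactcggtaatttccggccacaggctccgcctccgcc
Ube2c, chr2:164769819-164769928, plus strand: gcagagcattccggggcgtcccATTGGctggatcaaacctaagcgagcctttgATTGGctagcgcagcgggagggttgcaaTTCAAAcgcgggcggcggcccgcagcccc
Cdc20, chr4:118437344-118437453, minus strand: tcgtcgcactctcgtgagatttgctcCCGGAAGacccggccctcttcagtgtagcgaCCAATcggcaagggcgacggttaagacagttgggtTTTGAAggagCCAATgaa

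Ube2c and Cdc20 each show a CHR match and 2 CCAAT matches in these bases, in one or the other orientation. Cdc20 also shows an ETS-type match. Anapc1 shows an NRF1-type match alone, Anapc11 an ETS-type match alone and Cdc27 2 CCAAT matches without a CHR.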

How the data were processed

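Members and gene lists were chosen with earlier results of these data known. The scanner files hold intensity values of 1 array each, background-subtracted and detrended by the authors with Agilent Feature Extraction 10.7.1.1, per the file headers (9.5.1.1 per the submitters' processing notes), not yet normalized between arrays. The authors' deposited table, also linear intensity with a median of 17.7 on every array, served as an alternative.

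From the deposited processed signals, log2 values were taken and each array's 75th percentile was subtracted. Control and outlier-flagged spots were dropped, and repeated spots averaged. Probes well above background on all 3 arrays of a group were tested, the brightest per gene, giving 17947 features. Names came from the array and, for 2838 probes, from transcript accessions in a GRCm38.p6 gene table. Groups were compared with limma 3.58.1 (lmFit, eBayes, 2-sided) in R 4.3.3, Benjamini-Hochberg threshold 0.05. For a bound, each array of the dim group counted at its own signal or at the lowest signal well above background, whichever was higher. Scripts were tested on simulated data. Named were all subunits, fixed regulators and up to 4 genes of smallest p per list. The number of arrays limits the precision. Sequences are from the array files and RefSeq.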

Additional observations from a re-analysis of the deposited data

How the results depend on the processing

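The count of called features was 0 as reported and under every alternative except quantile normalization and the deposited table, which called 1 each, Olfr591, named here after its values were seen; 0 companion genes were called under any setting. The median difference of the measured subunits, -0.090, was -0.0037 without a filter on dim probes, which adds 2 genes near background, -0.017 with the mean of probes, and -0.15 both with a block for slide row and within row 2. Leaving out arrays in turn moved it between -0.16, without control 1, and -0.078, and the count of subunits with lower means between 4, without knockout 1 or control 3, and 6. That count was 5 with slide row as a block and with the other Cdc27 probe, an alternative chosen after seeing the data. Beside Anapc13 and Anapc15, given with their values above, signs turned among the named companions for Fzr1 (0.013 with normexp) and Fbxo5 (0.0028 with normexp), Fbxo5 (0.34) and Cdc26 (-0.22) with a block for slide row and within row 2; leaving out arrays, Fzr1 ranged from -0.26 to 0.12, Fbxo5 from -0.34 to 0.32 and Bub3 from -0.29 to 0.030. The cause was not tested. Arrays of the same replicate number shared no source by the labels, and their deviations correlated at 0.072, -0.020 and 0.093. With 1 knockout and 1 control array per replicate number, a replicate block cannot change any group difference. The median of -0.090 and the count of 6 lower subunits under it were therefore fixed in advance and test nothing. The called features, which such a block can change, stayed 0. Signal over background limits Anapc10 and Cdc23, which were not measured.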
